A study of Mus musculus with 15 samples.

Results

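Bidirectional coding gene promoters were examined for histone H3 trimethylated at lysine 4 (H3K4me3) in mouse liver. They were taken from GENCODE on mm10, chromosomes 1 to 19 and X, as pairs of protein-coding genes on opposite strands whose closest transcription start sites (TSSs) diverge, with the minus-strand TSS upstream of the plus-strand TSS and at most 1000 bp between them. The region of a pair was the span between these TSSs extended by 1 kb on each side. The rule found 1099 regions, formed by 2156 genes, among 20698 coding promoter regions in all. Of the others, 18565 were single promoters, with no other coding TSS within 1000 bp, and 1034 were neither. No measured value was used to choose the pairs.

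The tissue was liver from C57BL/6 females (C57BL/6J in the study's methods) labelled as 12 months old, with 3 mice on each of 5 diets and 1 library per mouse. The diets were given from 3 months of age for 10 months and were a standard diet ad libitum (SD), caloric restriction (CR), a high fat diet ad libitum (HF), a yellow corn diet ad libitum (YD) and a purple corn diet ad libitum (RD, labelled red diet). The mice came from 6 litters that the labels do not tie to animals, so p-values measure the spread between mice whatever their litter. Chromatin was taken from formalin-fixed, paraffin-embedded sections (PAT-ChIP), so every list is a mixture of the cells of the liver, in which fewer marked cells and less mark per cell cannot be told apart.

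H3K4me3 is deposited on nucleosomes around the start of active and poised genes, most of all where the DNA is rich in CpG dinucleotides that stay unmethylated. A promoter of this kind has a stretch without nucleosomes over the start, and the mark lies on the nucleosomes beside it, mainly on the side where the gene is transcribed. In a bidirectional promoter the same stretch serves a gene on each side, so both flanks are the start of a gene. Such pairs are common among genes that most cells use, including those for mitochondria, DNA repair and RNA processing.

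The pairs were compact. The median distance between the TSSs was 106 bp (quartiles 57 and 203.5 bp, range 1 to 998 bp), and 936 pairs (85.2%) were within 300 bp. The pairs closest to the limit from inside were Asphd1/Sez6l2 at 981 bp, Btf3l4/Txndc12 at 987 bp and 5330417C22Rik/1700013F07Rik at 998 bp, and those closest from outside were Nacc1/Trmt1 at 1004 bp, Serpina7/4930513O06Rik at 1007 bp and Gpr108/Trip10 at 1009 bp. A pair is written here with the minus-strand gene first. There were 41 genes in more than 1 pair, and 68 pairs had a region that overlapped that of another pair, so the same island can be counted for both. In 128 pairs a gene carried a Gm or Rik name, which marks a gene model with no established function.

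The sequences between the TSSs show what these regions are made of. They are the plus strand of the GRCm38 reference (RefSeq), from the minus-strand TSS to the plus-strand TSS, with matches to the 7 motifs described below in capitals on either strand. The first set holds pairs marked in 14 or 15 libraries, which join genes of mitochondria and basic metabolism. Hspd1 and Hspe1 encode the mitochondrial chaperonin and its partner, Mrps18b a mitochondrial ribosomal protein, Ppat and Paics enzymes of purine synthesis, Hadha and Hadhb the subunits of the mitochondrial trifunctional protein of fatty acid oxidation, and Sdhd a subunit of respiratory complex II.
Hspd1/Hspe1, chr1:55088243-55088314: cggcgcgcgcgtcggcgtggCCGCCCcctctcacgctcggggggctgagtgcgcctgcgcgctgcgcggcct
Mrps18b/Ppp1r10, chr17:35916389-35916434: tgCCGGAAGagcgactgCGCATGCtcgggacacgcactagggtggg
Ppat/Paics, chr5:76951165-76951307: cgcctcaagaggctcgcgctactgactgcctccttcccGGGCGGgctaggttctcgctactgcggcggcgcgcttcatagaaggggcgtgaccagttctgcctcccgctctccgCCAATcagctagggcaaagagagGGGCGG
Hadha/Hadhb, chr5:30155162-30155248: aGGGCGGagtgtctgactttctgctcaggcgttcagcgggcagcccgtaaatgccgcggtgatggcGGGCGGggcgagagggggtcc
Sdhd/Timm8b, chr9:50603812-50603910: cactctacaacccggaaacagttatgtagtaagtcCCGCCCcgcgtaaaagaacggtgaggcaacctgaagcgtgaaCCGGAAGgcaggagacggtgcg

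The second set had no island in any library. Col4a4 and Col4a3 encode basement membrane collagens, Hist1h2an and Hist1h2bp are replication-dependent histone genes, and Zfp558 encodes a zinc finger protein. The collagen span held 2 CpGs in 73 bases and the zinc finger span 1 in 92, against 15 in 72 bases for Hspd1/Hspe1. The histone span held 11 in 244 bases with 4 CCAAT boxes and 1 TATA box. Its CpG observed/expected ratio in the 1000 bp around the centre was high, at 0.997. CpGs in the span alone did not separate marked from unmarked pairs. Mrpl32/Psma2, with 1 in 76 bases, and Orc4/Mbd5, with 1 in 27, were marked in 15 libraries. Tmem200a/Gm9767, with 8 in 49, was marked in 0.
Col4a4/Col4a3, chr1:82586849-82586921: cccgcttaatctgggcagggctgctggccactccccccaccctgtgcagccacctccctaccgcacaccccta
Hist1h2an/Hist1h2bp, chr13:21787218-21787461: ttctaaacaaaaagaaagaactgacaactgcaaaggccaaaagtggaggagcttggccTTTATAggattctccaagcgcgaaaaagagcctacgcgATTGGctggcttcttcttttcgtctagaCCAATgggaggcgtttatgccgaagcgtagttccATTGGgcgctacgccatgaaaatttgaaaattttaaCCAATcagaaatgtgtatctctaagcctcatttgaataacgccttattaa
Zfp558/Mbd3l1, chr9:18478268-18478359: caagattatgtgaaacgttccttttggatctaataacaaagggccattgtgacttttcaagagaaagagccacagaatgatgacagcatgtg

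The third set holds pairs whose islands differed between diets. Zfpl1/Cdca5 had an island in every SD, CR and HF mouse and in no YD or RD mouse, and Nrg4/Tmem266 had one only in the CR and HF mice. Most of the Zfpl1/Cdca5 islands scored low, as given below.
Zfpl1/Cdca5, chr19:6084956-6084983: cgccacagcgccgcaggatacgcctctg
Nrg4/Tmem266, chr9:55326844-55326913: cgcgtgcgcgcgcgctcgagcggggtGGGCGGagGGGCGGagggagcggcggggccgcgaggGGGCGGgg

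The island lists were uneven between libraries, and this touches every comparison. They held 7825 (YD_1) to 33752 (CR_3) islands, and the reads behind them, estimated from the score steps of the islands of 1 window, ranged from 5589269 (CR_1) to 13978169 (RD_2) in 14 libraries, with a median of 9496824. No estimate was obtained for YD_1, in which 2 such islands gave no whole number of reads. Of 10 hepatocyte markers 5 to 10 had an island within 1 kb of a TSS, against 0 to 5 of 5 endothelial, 0 to 3 of 5 Kupffer cell, 0 to 3 of 5 stellate, 0 to 2 of 5 cholangiocyte and 0 to 1 of 5 lymphocyte markers. The highest endothelial, Kupffer and stellate counts were in HF mice, and the YD mice had 0 endothelial, 0 stellate and 0 to 1 Kupffer markers, and the part of these cells in the diet differences below was not tested. Csf1r, Vsig4, Epcam, Krt19, Spp1, Cd3e, Cd79a and Cd8a had no island in any library.

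The first question was whether pairs carried an island more often than single promoters. They did in every library: an island overlapped 74.5% ± 13.4 (SD, n = 15) of the bidirectional regions and 30.3% ± 10.3 of the single promoters. The share of pairs was lowest in YD_3 at 43.5%, where 478 pairs were marked, had its median of 75.1% in RD_2, and was highest in HF_1 at 89.4%, with 983 pairs. The difference was 44.2 percentage points on average, between 31.1 and 48.5 points within a library, and was positive in 15 of 15 libraries (exact permutation test by sign flips, two-sided p = 6.1e-05, the smallest this test can give). The odds of an island were 8.03 ± 1.54 times as high at a pair. A pair's region holds the starts of both its genes and counts as marked by an island at either, unlike that of a single promoter. The part of this in the differences in share, here and below, was not tested.

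**Figure D1:**
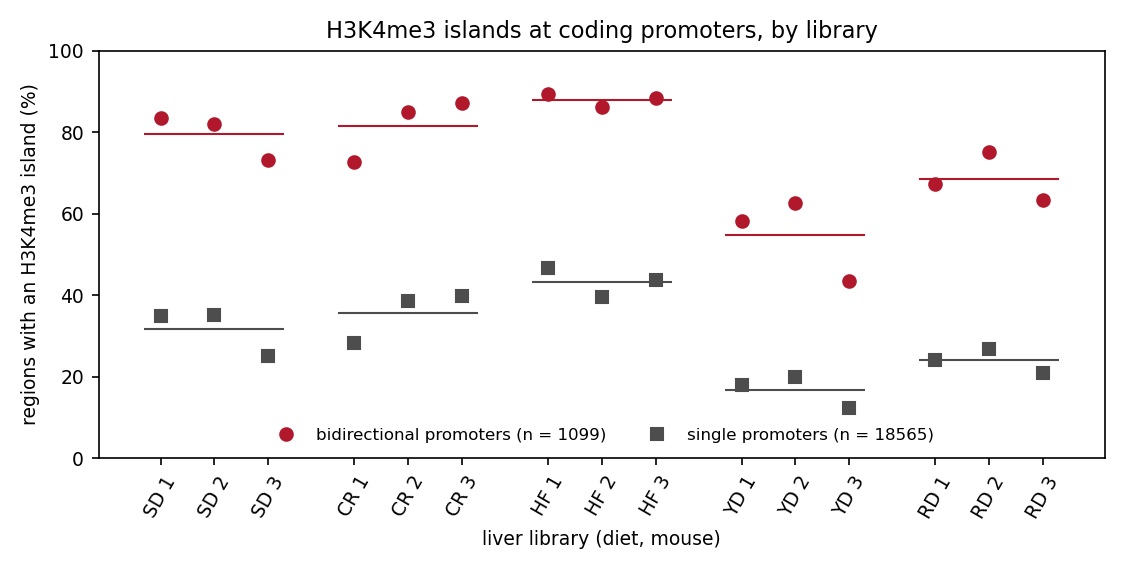
Share of regions with at least 1 H3K4me3 island in each of the 15 liver libraries (percent), for 1099 bidirectional promoters (red circles) and 18565 single promoters (grey squares), with the mean of each diet as a line. The bidirectional share lies above the single share in every library, from 43.5% in YD_3 to 89.4% in HF_1.

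The same pairs returned from liver to liver. There were 315 pairs (28.7%) with an island in all 15 libraries and 96 (8.74%) with one in none, and the median pair was marked in 13. Among single promoters 1093 (5.89%) were marked in all and 8955 (48.2%) in none, with a median of 1 library. Of the 203 pairs that lacked an island in exactly 1 library, 116 (57.1%) lacked it in YD_3, and 431 pairs were marked in all 14 other libraries when YD_3 was left out. There were 615 pairs with an island in at least 2 of 3 mice of every diet.

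**Figure D2:**
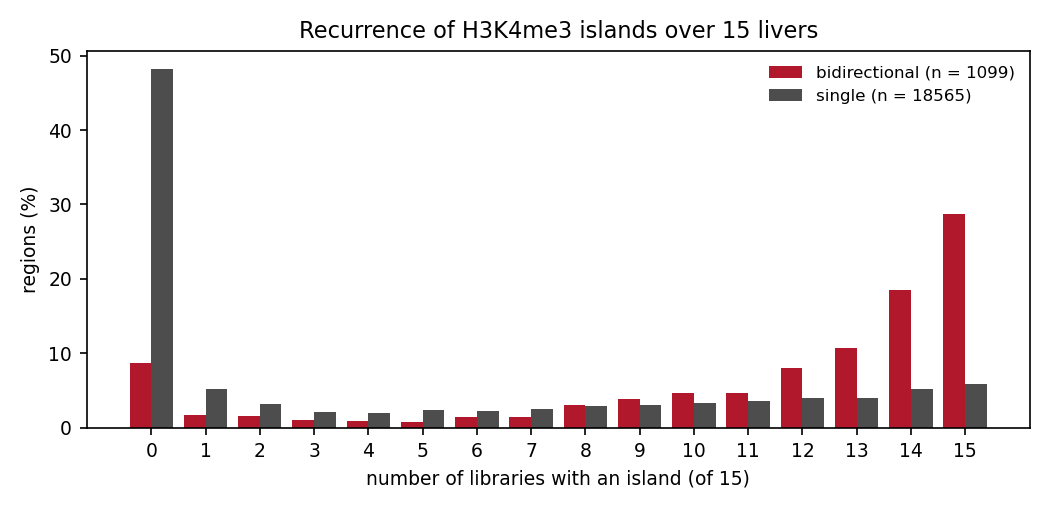
Percent of regions (vertical axis) by the number of libraries, of 15, in which they had an island (horizontal axis), for bidirectional (red) and single (grey) promoters. The bidirectional bars pile up at 13 to 15 libraries, with 28.7% in all 15, and the single bars at 0, with 48.2%.

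The share with an island followed CpG content. A promoter was called CpG-rich when the 1000 bp around its centre had at least 50% GC and a CpG observed/expected ratio of at least 0.6. This held for 880 pairs (80.1%) and 7826 single promoters (42.2%), and the median ratio was 0.764 in pairs and 0.520 in single promoters. Among CpG-rich promoters an island was found at 81.5% ± 13.8 of pairs and 54.3% ± 17.6 of single promoters. The difference was smaller than over all promoters, at 27.2 points (range 16.2 to 35.5), and again positive in 15 of 15 libraries (exact permutation test, p = 6.1e-05). Among promoters that were not CpG-rich the shares were 46.2% ± 12.3 and 12.7% ± 5.19. Of the CpG-rich pairs 286 (32.5%) were marked in all 15 libraries and 26 (2.95%) in none, against 885 (11.3%) and 1375 (17.6%) of the CpG-rich single promoters.

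Across bins of CpG ratio, marked pairs rose from few to most. Under a ratio of 0.4 an island was found at 19.6% ± 8.70 of 87 pairs, and between 0.4 and 0.6 at 62.4% ± 15.3 of 116. The share was 79.9% ± 13.7 of 451 pairs between 0.6 and 0.8, 83.2% ± 14 of 406 between 0.8 and 1.0, and 80.7% ± 14.6 of 39 above. The last 3 bins differed by less than the spread between libraries, but they come from the same libraries and their differences within a library were not tested. Single promoters were lower in each bin, at 6.88%, 26.5%, 49.5%, 60% and 60.2%, and the gap was widest between 0.4 and 0.6.

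**Figure D3:**
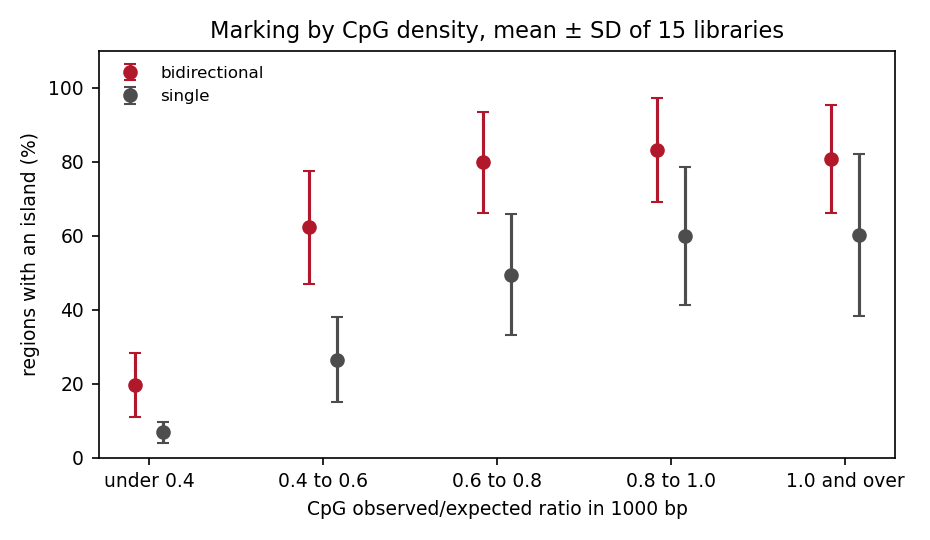
Percent of regions with an island (mean ± SD over 15 libraries) by CpG observed/expected ratio in the 1000 bp around the promoter, for bidirectional (red) and single (grey) promoters. Pairs are above single promoters in each bin, and their share levels off near 80% from a ratio of 0.6.

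Pairs also had wider and higher-scoring islands. The median width of the widest island at a marked region was 2147 ± 521 bp for pairs and 1800 ± 363 bp for single promoters (n = 15), a difference of 347 bp that was positive in 12 libraries and 0 in the YD libraries (exact permutation test, p = 0.00049). In CpG-rich promoters the difference was 373 bp (range 200 to 800 bp) and positive in 15 of 15 libraries (p = 6.1e-05, exact permutation test). The score was ranked among the marked coding promoter regions of the same library, from 0 for the lowest to 100 for the highest. The median rank was 66.2 ± 5.49 for pairs and 47.0 ± 0.688 for single promoters, 19.3 points apart (range 9.69 to 29.7; exact permutation test, p = 6.1e-05), and 18.9 points apart in CpG-rich promoters (p = 6.1e-05, exact permutation test). A wider island sums more windows, so width and score are not independent.

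Islands over pairs reached far to both sides of a start. At single promoters the island reached 1331 ± 230.4 bp downstream of the TSS and 548 ± 96.3 bp upstream. Measured from each gene's own TSS, islands over pairs reached 1055 ± 218 bp downstream and 1164 ± 227 bp upstream, that is into the partner gene. The downstream reach was shorter at pairs than at single promoters in 15 of 15 libraries, and the upstream reach was longer in 15 of 15. Where the same island covers both TSSs, a gene's upstream reach is the distance between the TSSs plus its partner's downstream reach. At such pairs the upstream value is therefore not a result separate from the downstream value. The downstream minus upstream reach was 770 ± 122 bp at single promoters. The plus-gene minus minus-gene side of pairs averaged -15.7 bp, but strand is arbitrary with respect to the genes, so a value near 0 follows whatever the shape of the islands and is no comparison with single promoters.

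Coverage by position was highest around the midpoint of pairs. At CpG-rich pairs an island covered the midpoint between the TSSs in 71.0% ± 18 of regions, and 69.4% ± 17.1 and 69.1% ± 16.8 at 500 bp on the minus-gene and plus-gene side. At CpG-rich single promoters the TSS was covered in 40.3% ± 17.9, the point 500 bp downstream in 50.3% ± 17.2 and that 500 bp upstream in 25.1% ± 13.5. At 2000 bp downstream single promoters were covered in 13.5% ± 8.06 and pairs in 11.4% ± 7.69. This difference is smaller than the spread between libraries and was not tested within libraries.

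**Figure D4:**
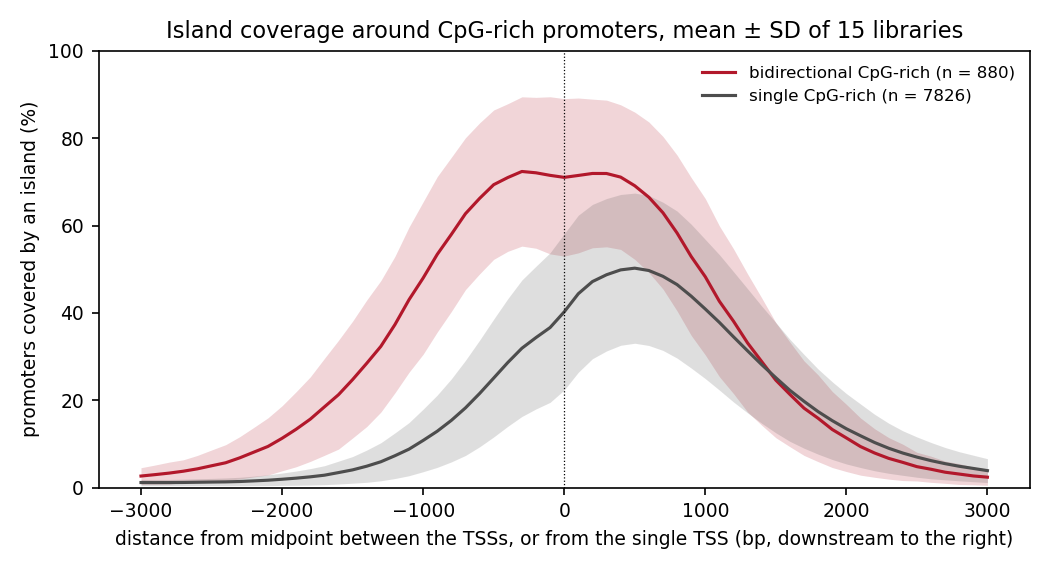
Percent of CpG-rich promoters covered by an island (vertical axis, mean of 15 libraries, shading ± SD) by distance in bp from the midpoint between the TSSs of 880 pairs (red, plus-strand gene to the right) or from the TSS of 7826 single promoters (grey, downstream to the right). The curve of pairs is level across the midpoint, with sides set by strand, and that of single promoters peaks at 50.3% some 500 bp downstream.

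At most marked pairs a single island covered both starts. Over the 12281 cases of a pair marked in a library, 1 island lay over both TSSs in 10283 (83.7%), an island lay over only 1 of the TSSs in 549 (4.47%), and in 1445 (11.8%) the islands lay beside both TSSs. Different islands over the TSSs were seen in 4 cases. Of the 1445 cases beside the TSSs 1254 had islands on 1 side only and 191 on both sides. The share with 1 island over both TSSs ranged from 55.4% in YD_3, where 184 pairs were marked only beside the TSSs, to 94.3% in HF_3, where 27 were. Windows of 200 bp and gaps of up to 400 bp were joined when the islands were called, so a nucleosome-free stretch shorter than a gap does not split an island.

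Pairs with closer TSSs had 1 shared island more often. An island over 1 TSS reaches a second more easily when it is close, so some difference by distance follows from how this share is counted. The size of that part was not tested, and the share was not split by CpG content. A single island covered both TSSs in 87.7% ± 9.05 of marked pairs at up to 100 bp, 81.6% ± 11.6 above that and up to 200 bp, 76.4% ± 12.6 up to 300 bp, 75.7% ± 14.1 up to 500 bp and 55.8% ± 18.6 up to 1000 bp. The share with any island was 79.1% of 532 pairs in the first bin, 73.4% of 286, 68.3% of 118 and 75.1% of 77 in the next, and 57.5% ± 12.0 of 86 in the last, in which 44.2% of pairs were CpG-rich against 78.7% to 86.4% in the others. Among CpG-rich pairs the share was 84.6%, 79.1%, 73.4%, 81.8% and 81.2% in the same order, and these values were all within the spread between libraries.

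Short motifs of transcription factors were counted in the 500 bp around each promoter, on both strands. None of the motifs contains another, and a match is a description and not a bound site. The ETS motif, written CCGGAAG and bound by GABPA and other ETS factors, stood in 32.5% of pairs, 12.7% of single promoters and 14.2% of all coding promoters. Among CpG-rich promoters it stood in 36.8% of pairs and 21.5% of single promoters. The motif of NRF1, a regulator of nuclear genes for mitochondria, was spelled CGCATGC and found in 9.55% of pairs, 5.11% of single promoters and 5.42% of all, and among CpG-rich promoters in 11.1% and 8.63%. The YY1 motif, written AAGATGG, was found in 13.5%, 9.92% and 10.2%, and among CpG-rich promoters in 14.5% and 10.4%. The E-box, written CACGTG, was found in 14.7%, 10.1% and 10.3%, and among CpG-rich promoters in 15.6% and 14.2%. The TATA box, spelled TATAAA, was rarer at pairs, with 7.10% against 17.2% of single and 16.4% of all promoters. In CpG-rich promoters its shares were 5.57% and 6.84%. The GC box, spelled GGGCGG, was found in 74.5%, 52.4% and 54.1%, and among CpG-rich promoters in fewer pairs (81.6%) than single promoters (87.1%). The CCAAT box was found in 48.9%, 48.0% and 47.9%, and among CpG-rich promoters in 48.6% of pairs and 42.1% of single promoters.

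Pairs with the ETS letters were marked more often. In CpG-rich promoters an island was found at 86.5% ± 12.5 of 324 pairs with CCGGAAG and 78.6% ± 14.6 of 556 without, and at 69.3% ± 18.6 and 50.2% ± 17.3 of single promoters. For the TATA box the order was the reverse at pairs, with 69.7% ± 13.8 of 49 CpG-rich pairs with it and 82.2% ± 13.8 of 831 without. These shares are a description, with no test.

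Pairs on the X chromosome stood lower. An island was found at 39.1% ± 20.8 of 30 pairs on X and 75.5% ± 13.2 of 1069 on the autosomes, and in CpG-rich pairs at 53.8% ± 26.4 of 16 and 82.0% ± 13.6 of 864. CpG-rich single promoters showed the same order, with 33.8% ± 18.8 of 199 on X and 54.8% ± 17.6 of 7627 on the autosomes. Pqbp1/Timm17b, which holds a subunit gene of the inner membrane import machinery, was marked in 10 libraries and Psmd10/Atg4a, with a proteasome assembly chaperone gene, in 7. Ofd1/Trappc2 was marked in 5, all of them CR or HF.

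A list of 25 gene pairs known for sharing a promoter was searched, and the rule found 16, of which 14 were CpG-rich. There were 3 with an island in all 15 libraries (Surf1/Surf2, Atm/Npat and Mrps18b/Ppp1r10), 9 with one in 14, 3 in 11 to 13, and 1 in none. Of the 9 pairs missing in a single library 8 were missing in YD_3. Brca1/Nbr1 and Fen1/Tmem258, of DNA repair and replication, were among the 9. Atm/Npat, which joins the DNA damage kinase to an activator of histone genes, was 307 bp apart and had islands of 1800 to 4200 bp in all 15 libraries. Mcm4/Prkdc, a replicative helicase subunit and a repair kinase, had islands in 13 with a median of 1800 bp. Tk1/Afmid, thymidine kinase and a tryptophan catabolism enzyme, was marked in 11. Col4a4/Col4a3 was the pair without an island.

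Among the mitochondrial pairs Hspd1/Hspe1, on chr1:55087243-55089314 with its flanks, had islands of 4200, 1600 and 2000 bp in the SD mice and 4000, 3800 and 3400 bp with CR. The HF mice had 2200, 3200 and 4600 bp, the YD mice 3600, 1000 and 0 bp and the RD mice 2600, 1400 and 1800 bp. The widths of each other diet overlapped those of SD, and the only mouse without an island was YD_3. Surf1/Surf2, where Surf1 is an assembly factor of cytochrome c oxidase and the starts are 22 bp apart, had islands of 800 bp (YD_3) to 9400 bp (HF_1) with a median of 2400 bp. Ppat/Paics had none in YD_3 and a median of 3200 bp in the others. Mrps12/Sars2, a mitochondrial ribosomal protein and the mitochondrial seryl-tRNA synthetase, was marked in 14 libraries with a median of only 1200 bp and a median rank of 37.2.

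Some pairs were marked more on one gene than on the other. The reach into each gene is the median over the libraries in which 1 island covered both TSSs. At Brca1/Nbr1, a DNA repair gene and an autophagy receptor gene 194 bp apart, the island reached a median of 954 bp into Brca1 and 3451 bp into Nbr1, in 6 of the 14 libraries with an island. At Mrps18b/Ppp1r10 it reached 1188 bp into Mrps18b and 3166 bp into Ppp1r10, which encodes a regulatory subunit of protein phosphatase 1. At Psmb1/Tbp, a proteasome subunit and the TATA-binding protein, the longer side was Psmb1 with 3150 bp against 1312 bp in 9 of 14 libraries. Hadha/Hadhb was even, with 1661 and 1752 bp.

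The widest islands among pairs marked in all 15 libraries were as follows. Brd2/H2-DMa, a bromodomain protein of acetylated chromatin and a chain of the MHC class II peptide loader, had a median of 8400 bp, from 5200 bp in YD_3 to 11200 bp in HF_1, of which 6433 bp lay on the Brd2 side and 1378 bp on the H2-DMa side. Hjurp/Trpm8, a centromere chaperone gene and a cold channel gene, had a median of 7600 bp but 18800 and 20800 bp in SD_1 and SD_2, 22000 bp in HF_3 and 21200 bp in YD_1 and in YD_2, and 4400 to 8400 bp in the other 10. Hnrnpa2b1/Cbx3, an RNA-binding protein and a heterochromatin protein, had 5800 bp. Dcaf6/Mpc2 had 5200 bp, with 3563 bp on the side of Mpc2, which encodes a subunit of the mitochondrial pyruvate carrier.

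Pairs with genes of mitochondria and of protein synthesis were often marked. Against a mean of 74.5% over all pairs and 81.5% over CpG-rich pairs, an island was found at 96.2% ± 8.48 of 7 pairs with an aminoacyl-tRNA synthetase, 92.4% ± 9.91 of 14 with a cytosolic ribosomal protein, 91.4% ± 13 of 7 with a mitochondrial import protein, 91.1% ± 7.85 of 24 with a mitochondrial ribosomal protein and 87.2% ± 9.65 of 35 with a gene of oxidative phosphorylation. Of the pairs in these groups 7, 12, 5, 24 and 31 were CpG-rich, in that order. Of the mitochondrial ribosomal pairs 13 were marked in all libraries and none in none, and the fewest libraries were 4 for Mrpl54/Apba3. Eme2/Mrps34 and Mrpl46/Mrps11 were marked in all 15. Of the oxidative phosphorylation pairs 14 were marked in all, such as Rps28/Ndufa7 and Sdha/Ccdc127, and Cbarp/Atp5d in none. Single promoters of the same families were lower in the mean, at 76.8% for the synthetases, 78% for cytosolic ribosomal proteins, 71.9% for import, 77.0% for mitochondrial ribosomal proteins and 77.5% for oxidative phosphorylation, and pairs were higher in 14, 15, 15, 10 and 15 of 15 libraries in that order.

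Pairs of the nuclear gene expression machinery were close to these. The share was 90.4% ± 12.8 for 30 pairs with an RNA polymerase subunit or general transcription factor, 87.8% ± 14.7 for 17 with a splicing factor and 83.7% ± 11 for 25 with a chaperone. Of these pairs 29, 16 and 21 were CpG-rich, in that order. Polr1c/Yipf3 and Polr3c/Rnf115 were marked in all libraries and Polr3a/Rps24 in 9. Bag4/Lsm1, whose starts are 1 bp apart, was marked in all 15. Hspa1a/Hspa1l, the stress-inducible Hsp70 gene and its neighbour, had no island in any library although CpG-rich.

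Other groups lay near the mean of all pairs. DNA repair and replication genes had 76.6% ± 17.6 of 47 pairs, with Orc3/Rars2 and Orc4/Mbd5 in all libraries, Rad54l/Pomgnt1 in 3 and Polk/Gm17622 in none. Zinc finger genes had 78.1% ± 12.2 of 32, solute carriers 78.1% ± 16.6 of 25 and proteins named only as transmembrane 78% ± 14 of 40. Single solute carrier promoters had 29.5% ± 11.8, lower in 15 of 15 libraries. Proteasome subunits had 76.4% ± 15.3 of 11 pairs and 80% ± 10.1 of 36 single promoters, with pairs lower in the mean but higher in 9 of 15 libraries. Htr2b/Psmd1, with a CpG ratio of 0.278, had no island in any library. A pair's region holds the closest of all annotated TSSs of its genes, and a start of either gene elsewhere was not counted. Liver metabolism and secretion genes had 80.0% ± 15 of 12 pairs and 39.6% ± 11 of 268 single promoters. Hadha/Hadhb was marked in all 15 there. Tada2a/Acaca, the start that lies beside acetyl-CoA carboxylase, was marked in 6, with 600 to 1400 bp, and Fam90a1b/Apoo in 2.

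Histone pairs were marked less than the other groups of more than 1 pair. An island was found at 26.2% ± 13.4 of 14 pairs, none in all 15 libraries and 4 in none, although 13 of the 14 were CpG-rich. Single histone promoters had 27.5% ± 14.8 of 54, and pairs were higher in 8 of 15 libraries. Hist2h2ac/Hist2h2be and the neighbouring Bola1/Hist2h2ab were marked in 14, by the same island, and Hist1h2an/Hist1h2bp and Hist1h2ap/Hist1h2br in none. These genes are near-identical copies, and reads that fit several places equally were removed before the islands were called. The part of this step in the low share was not tested.

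Pairs without any island had few CpGs. The median CpG ratio of the 96 pairs was 0.390, against 0.792 for the 315 pairs marked in all 15 libraries, and their median distance was 175.5 bp against 88.0 bp. Only 26 were CpG-rich, and 29 held a gene with a Gm or Rik name. The closest of them were Lrtm2/Cacna2d4 at 3 bp, with a calcium channel subunit gene, Wdr54/1700003E16Rik at 7 bp and Cbarp/Atp5d at 16 bp. Then followed Lrrc34/Lrriq4, 9430097D07Rik/Pip5kl1, Best1/Rab3il1, Spcs2/Xrra1, Spaca4/Fam83e, Tmem200a/Gm9767 and Ubxn10/Pla2g2c, at 17 to 60 bp. Best1 is a channel of the retinal pigment epithelium and Spaca4 a sperm protein. Of these 10 pairs 2 were CpG-rich. Cbarp/Atp5d and Spcs2/Xrra1 hold genes that every cell uses, for a subunit of ATP synthase and of signal peptidase. Each region holds only the closest annotated TSSs of its pair, and a start of either gene elsewhere was not counted. A pair without an island is therefore not the same as a gene without a marked start.

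The next question was which diets changed the marking of pairs. The SD livers had an island at 79.5% ± 5.64 of pairs, CR at 81.6% ± 7.87, HF at 88.0% ± 1.62, YD at 54.8% ± 10 and RD at 68.5% ± 5.98 (n = 3 each). The YD mice, at 43.5%, 58.2% and 62.6%, were the lowest 3 of all 15, below RD at 63.3% to 75.1%. The YD share was 24.7 points below that of the other 12 mice (exact permutation test, two-sided, p = 0.0022, the smallest it can give, adjusted over the 5 diets p = 0.011). Each of the 3 YD mice was below every other mouse. Without YD_3 the difference was -19 points, without YD_1 of -26.4 and without YD_2 of -28.6, and the adjusted p of the exact permutation test was 0.055 each time, the smallest that 2 mice allow. When each list was read down to the same number of islands the difference was -16.8 points and no longer passed (adjusted p = 0.093, exact permutation test). The HF share was 16.9 points above the others (p = 0.037, adjusted p = 0.093, exact permutation test) and did not pass. The adjusted p was 0.49 for SD, for CR and for RD by the same exact permutation test. Against SD alone, YD was 24.7 points lower and HF 8.49 points higher with no overlap, where 3 mice against 3 cannot go below p = 0.1 in an exact permutation test.

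Single promoters moved the same way, from 16.8% ± 3.90 (YD) and 24.0% ± 2.91 (RD) to 31.7% ± 5.72 (SD), 35.6% ± 6.43 (CR) and 43.3% ± 3.64 (HF). To ask whether pairs moved by more or less than single promoters, the log odds ratio of an island at a pair against a single promoter was compared between diets. It averaged 1.82 ± 0.11 (YD), 1.95 ± 0.14 (RD), 2.14 ± 0.21 (CR), 2.15 ± 0.07 (SD) and 2.27 ± 0.01 (HF). It was 0.31 lower in YD than in the other diets (exact permutation test, p = 0.0088, adjusted p = 0.044), with the highest YD value of 1.90 inside the RD range of 1.86 to 2.10. In HF it was 0.25 higher (p = 0.040, adjusted p = 0.099, exact permutation test). This call was not stable. It was lost in 6 of 12 other settings and on leaving out any library but RD_1 and RD_3, with values of -0.35 to -0.25 and adjusted p of 0.055 to 0.14 by exact permutation test where it was lost.

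Single pairs were then followed between each diet and SD, first by presence in 3 of 3 mice of one and 0 of 3 of the other. Such pairs are a count, since 3 mice against 3 cannot pass an adjusted threshold. In YD 57 pairs (5.19%) lost their island, against 3.23% of all 20698 coding promoter regions, and 0 gained one, against 0.00483%. The 5 with the shortest distance were Trp53i13/Abhd15, Cyb5d1/Naa38, Plcd3/Acbd4, 1110032A03Rik/Alg9 and Zfpl1/Cdca5. In RD 10 pairs (0.910%) lost their island, against 0.961% of all regions, and 0 gained one, against 0.0242%. In HF 8 pairs (0.728%) gained an island, against 1.85% of all, and 0 lost one, against 0.00966%. In CR 1 pair gained an island, against 0.324% of all, and 0 lost one, against 0.0145%. The RD share was near the background, the HF share was below it and the YD share was above it. Only a region marked in all 3 SD mice can be lost, and only a region marked in 0 of 3 can be gained. The SD livers had an island at 79.5% of pairs and 31.7% of single promoters, so a larger share of pairs was open to loss and a smaller share to gain. These shares therefore do not show whether pairs were more or less prone to change than other regions. The counts hung on single mice, with 57 YD pairs becoming 95, 113 and 105 without YD_1, YD_2 and SD_3, and 29 when lists were read down to the same number of islands.

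The losses touched pairs of varied function. Zfpl1/Cdca5, a Golgi protein and the cohesin regulator sororin, had islands of 1200, 1200 and 2200 bp in SD and 2000, 1600 and 600 bp in CR. It had 2400, 1200 and 2200 bp in HF, and none in YD and RD. Its score ranks among the marked promoters of a library ran from 0.99 to 52.8, with a median of 9.31. Most of its islands were thus among the lowest-scoring ones. Wfdc3/Dnttip1 was marked in the same 9 mice, with islands of 1000 to 3400 bp and a median rank of 49.3. Cyb5d1/Naa38, where Naa38 is a subunit of an N-terminal acetyltransferase, had islands of 1400 to 3800 bp in the 12 other mice and none in YD. 1110032A03Rik/Alg9, with a mannosyltransferase of N-glycan synthesis, had islands of 1400 to 1600 bp in SD and none in YD. Plcd3/Acbd4, a phospholipase C and an acyl-CoA-binding protein, had 2200 to 3800 bp in SD, none in YD and 0, 2400 and 0 bp in RD. Nek8/Tlcd1 had 3000 to 3400 bp in SD and none in RD, and in YD 3000 bp in the first mouse and none in the others. Hsdl1/Dnaaf1 and Cyb561d2/Nprl2 had islands of 800 to 1800 bp in SD and none in RD, and of 1000 bp in YD_3 only. The YD and RD counts share the SD mice, so they are not independent.

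The gains in CR and HF were few. Nrg4/Tmem266, where Nrg4 encodes a secreted ligand of ErbB receptors, had islands of 1400, 2000 and 2400 bp in CR and 2400, 1800 and 2600 bp in HF, and none in SD, YD or RD, so the groups did not overlap. Ofd1/Trappc2, a centriole protein and a vesicle transport subunit on X, had 4000, 1400 and 2000 bp in HF, 0, 1800 and 1600 bp in CR and none in the rest. Stap2/Mpnd, which was not CpG-rich, had 2000, 800 and 1000 bp in HF, 0, 800 and 1000 bp in CR and 0, 400 and 0 bp in YD. It had none in SD or RD. CR and HF share the SD mice as well.

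**Figure D5:**
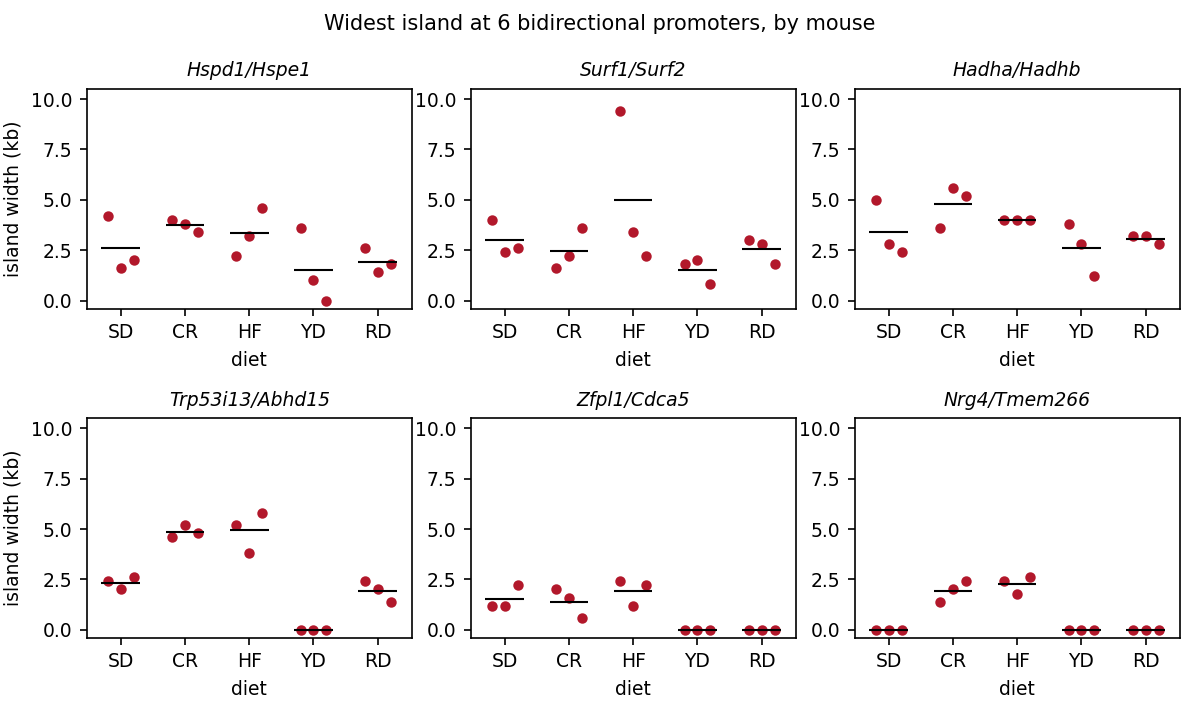
Width in kb of the widest island (vertical axis, 0 where none was called) at 6 bidirectional promoters in each mouse (points) with the mean (line), by diet. Zfpl1/Cdca5 is at 0 in all YD and RD mice, Nrg4/Tmem266 is above 0 only in CR and HF mice, and at Hspd1/Hspe1 and Hadha/Hadhb the range of every other diet overlaps that of SD, while at Surf1/Surf2 the YD mice lie below it.

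Scores were compared between diets by rank. Each region was given its place among the 3054 highest-scoring coding promoter regions of its library, from 100 for the highest down to 0 for any region below them, so that long and short lists were read to the same depth. Of the 4905 regions above 0 in at least 3 libraries 732 were pairs. By limma with Benjamini-Hochberg adjustment over the 4905 regions, 2 pairs were called in CR against SD (0.245% of all regions tested), 0 in HF (0.0815%), 0 in YD (0.0204%) and 1 in RD (0.0815%). At an unadjusted p under 0.05 in limma there were 37, 41, 55 and 40 of the 732 pairs. Over all 4905 regions there were 244, 263, 354 and 263, so the shares of pairs were near those of all regions. With presence in place of rank limma called 1, 5, 42 and 7 of 967 pairs, against 0.236%, 3.00%, 4.88% and 1.57% of 9732 regions, and the 42 in YD and the 7 in RD were all losses. With ranks that were not truncated it called 1, 5, 42 and 5 pairs, against 0.308%, 2.36%, 4.91% and 0.853% of regions. The CR pair was then higher and the 5 RD pairs lower than SD, so the calls of Inca1/Kif1c and Vezt/Fgd6 given next need the truncated rank.

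Trp53i13/Abhd15, whose starts are 4 bp apart on chr11:77514980-77516984 with flanks, was higher in CR. Its rank was 0, 0 and 4.2 in SD and 75.7, 64.3 and 73.8 in CR, a difference of 69.9 ± 11.8 (SE; limma, adjusted p = 0.029). The HF ranks of 46.0, 74.8 and 77.5 were also above all of SD, and those of YD were 0. The islands showed the same order, with 2400, 2000 and 2600 bp in SD, 4600, 5200 and 4800 bp in CR, 5200, 3800 and 5800 bp in HF, 2400, 2000 and 1400 bp in RD, and none in YD. Abhd15 encodes a protein of the alpha/beta hydrolase fold.

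Inca1/Kif1c, an inhibitor of cyclin-dependent kinase and a kinesin, was lower in CR, with ranks of 65.6, 81.0 and 84.1 in SD and 0, 0 and 9.8 in CR (difference -73.6 ± 12.5, limma, adjusted p = 0.029). Its island was present in all 15 mice, with 2800, 2400 and 3200 bp in SD and 2200, 3200 and 2000 bp in CR, so the widths overlapped where the ranks did not. Vezt/Fgd6, where Vezt encodes an adherens junction protein, was higher in RD, with truncated ranks of 0 in all SD mice and 66.2, 59.4 and 73.6 in RD (difference 66.4 ± 8.11, limma, adjusted p = 0.010). The truncated ranks of the HF mice, at 30.6, 23.5 and 38.3, were also above SD. An island was present in SD_2 and SD_3 below the truncation, with 2800 and 1400 bp, and in the RD mice with 2600, 2400 and 2400 bp, so the widths overlapped. In HF the largest differences were at Tshz1/Zadh2 (71.9 ± 21.9), Dhrs1/Nop9 (70.3 ± 12.5) and Zfp91/Lpxn (66.7 ± 16), with adjusted p of 0.55, 0.095 and 0.41 by limma. In YD they were at Brox/Aida (75.2 ± 16.7), Ift80/Smc4 (-71.2 ± 21.8) and AU022252/P3h1 (-68.1 ± 12.0), with adjusted p of 0.19, 0.42 and 0.090 by limma. None of these 6 passed the test. The calls in CR were lost without any 1 of the SD or CR mice (0 pairs each), and that in RD without SD_1, SD_2, RD_1 or RD_3.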

How the data were processed

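The data are H3K4me3 island lists from PAT-ChIP-seq of 15 mouse livers. Reads (single, 50 bp) had been mapped with BWA to mm10, and duplicates and reads of MAPQ under 1 discarded; the submitters' processing notes also name SAMtools and SICER. The authors called islands per library with SICER2 (windows of 200 bp, gaps up to 400 bp, FDR limit 0.05). The deposited score of an island depends on the depth of its library, and ranks within 1 list were used instead. Groups came from the sample titles.

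Promoters were taken from GENCODE M21 (21755 coding genes) and sequences from GRCm38.p6. Pairs were found over all annotated TSSs of coding genes; a single promoter was 1 kb on each side of the APPRIS principal TSS (the gene's 5′ end where no transcript has that tag). An island counted when it overlapped a region by at least 1 bp, and its whole width was used. Within-library differences were tested by exact sign-flip permutation over 15 libraries (32768 arrangements) and 3 mice against 12 by exact permutation of the absolute difference in means (455 arrangements), adjusted over 5 diets by Benjamini-Hochberg. Ranks were tested with limma 3.58.1 in R 4.3.3; the rest used Python 3.11.15 (pysam 0.24.0, scipy 1.17.1, pandas 2.3.3, numpy 2.4.6, matplotlib 3.10.9). The scripts were tested on simulated data.

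The members and lists were chosen with earlier results of these data known. Named pairs are the textbook pairs, the 5 widest, the 10 closest without an island, the pairs called or with the 3 largest differences per diet, up to 5 gained or lost per diet and, per gene group, the 2 marked in the most and fewest libraries; some of these were left out for length, and some items are not reported here. Gene groups were matched by symbol. Rps6kb1 and Col4a3bp match by letters only and were left out after they were seen. Settings varied were the distance limit, list length, width and overlap minimum, region size, TSS choice, CpG thresholds, rank depth, filter, library name form and each library left out.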

Additional observations from a re-analysis of the deposited data

Results flagged for a closer look

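A single result met a rule for a closer look, because a diet difference was unequal between kinds of promoter. The log odds ratio of an island at bidirectional against single promoters was lower in the YD mice than in the other 12, by -0.31 (1.82 against 2.13; exact permutation test, adjusted p = 0.044). It was lost in most leave-one-out settings. Groups of 3 mice are too small for a search for single outlying libraries.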

How the results depend on the processing

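The differences between pairs and single promoters kept their direction in every setting run. With only the 5 libraries named PATChIP the smallest exact permutation p is 0.0625, so none could pass, and the differences were 45.1 points in share, 400 bp in width and 21.1 in rank, 23.9 points, 360 bp and 19.7 among CpG-rich promoters, and 805 bp in reach (single promoters against the sides of pairs, which are near 0 by construction). Leaving out each library gave 43.9 to 45.2 points, 314 to 371 bp and 18.5 to 19.9, 26.6 to 28.0 points, 343 to 386 bp and 18.3 to 19.4, and 769 to 804 bp in the same order, with 315 to 431 pairs marked in every library and 96 to 104 in none.

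Among diets, CR minus the others changed sign in the PATChIP libraries, to -1.77 points in share and -0.079 in log odds ratio. These libraries came from CR, HF and RD mice only, and every SD and YD library was named ChIP. CR was therefore set there against HF and RD alone, which is not the contrast made with all libraries. Leaving out a library gave differences in share of 3.58 to 9.52 points for SD, 6.13 to 13.4 for CR, 14.4 to 18.4 for HF, -28.6 to -19 for YD and -10.7 to -4.83 for RD, and in the log odds ratio of 0.07 to 0.14, 0.0081 to 0.22, 0.22 to 0.28, -0.35 to -0.25 and -0.23 to -0.11. The YD share was -16.8 points at the same number of islands per list. The YD log odds ratio no longer passed in ChIP libraries only (-0.33), at the same number of islands (-0.24), with islands of at least 600 bp (-0.30), a fixed 2 kb region (-0.31), an overlap of at least 400 bp (-0.29) or the 5′ end of single genes (-0.31). The causes were not tested.

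Pairs gained or lost numbered 7, 23, 116 and 32 (CR, HF, YD, RD) at 2 of 3 mice, and 4 for CR, 29 for YD and 26 for RD at the same number of islands. Leaving out a mouse gave 2 to 8, 8 to 23, 60 to 113 and 12 to 44. Calls on rank became 1, 5, 42 and 5 with ranks not truncated and 1, 5, 42 and 7 with presence or absence. At the same number of islands CR had 0 and HF 1. CR had 0 with no filter, where most variances were 0, and 1 with TSSs within 300 bp. Leaving out a mouse gave 0 to 2, 0 to 1, 0 to 1 and 0 to 2.

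With the replicate number as a block CR and RD had 0 calls on rank, as had HF and YD, and the YD share and log odds ratio had adjusted p of 0.04 by exact permutation. The numbers did not pair the mice: 2 of 30 same-number pairs correlated over 0.1, and 5 of 15 libraries correlated best with their own number. List length and depth limit the comparison of diets.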
